A study of Homo sapiens with 12 samples.

Results

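Levels of 6 genes of amino acid and mitochondrial metabolism, ASS1, HPD, ACY1, GLUL, IDH2 and UCP2, were described in xenograft tumours. Per the labels these grew from Hep3B, an established line of human hepatocellular carcinoma. The genes were picked by name from the 4988 genes of the deposited mRNA table because their values fell in treated tumours, so their own difference between groups is a description and no test of it is given. The table held 3 control libraries and 3 libraries from tumours given bufotalin, a cardiac glycoside of toad venom; the dose, route and duration, and the strain and age of the host, are not stated in the labels. They name a xenograft as the tissue, while the title of the series speaks of treated cells, and they do not say whether the 3 libraries of a group came from separate animals, so p-values measure only the spread between these libraries, which may be technical.

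The proteins act at separate points of metabolism. Argininosuccinate synthase, from ASS1, joins citrulline and aspartate in the urea cycle and in the making of arginine, and the dioxygenase from HPD carries tyrosine breakdown forward to homogentisate. Aminoacylase from ACY1 frees amino acids from their N-acetylated forms, and glutamine synthetase from GLUL builds glutamine from glutamate and ammonia. IDH2 encodes the NADP-dependent isocitrate dehydrogenase of mitochondria, and UCP2 a carrier of the inner mitochondrial membrane that belongs to the uncoupling proteins. Liver is the main site of the urea cycle and of tyrosine breakdown, and liver tumours often keep only some of these enzymes.

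Values are FPKM, fragments scaled to transcript length and sequencing yield, as the authors deposited them, so levels of different genes can be compared per length. Errors after ± are SD over 3 libraries. Fold changes are bufotalin minus control on log2(FPKM + 1), a scale that understates changes of genes near 0, and SE is that of the limma fit over the 4273 genes whose mean reached 0.5 FPKM. Of these genes, 3981 (93.2%) had an adjusted p under 0.05, 2087 (48.8%) lower and 1894 (44.3%) higher. By its name the table lists genes the authors selected as different on these libraries, so most of its genes pass any test. The depth of total RNA was unknown, and the summed FPKM of the listed genes was 102677 to 121337 by library.

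Stretches of 250 bases upstream of the annotated start are shown for members with a RefSeq promoter sequence. Its start had to lie within 500 bases of the 5′ end of the deposited locus. Where a gene had several such starts, the nearest was used. The starts used lay inside the deposited loci, by 195 (ACY1), 44 (UCP2), 32 (ASS1) and 416 (GLUL) bases. The GLUL stretch thus lies wholly within the deposited locus, and the ASS1 stretch within the RefSeq locus of ASS1. The stretches place the genes with the largest fall (ACY1, UCP2) beside those with the smallest (ASS1, GLUL). They are RefSeq sequences of GRCh38.p14, printed 5′ to 3′ on the strand of the gene. Capitals mark 3 motifs, each searched on both strands. The GC box is GGGCGG. The CCAAT box is searched by the letters of its name. The E-box is CACGTG.
ACY1, chr3:51983285-51983534, plus strand: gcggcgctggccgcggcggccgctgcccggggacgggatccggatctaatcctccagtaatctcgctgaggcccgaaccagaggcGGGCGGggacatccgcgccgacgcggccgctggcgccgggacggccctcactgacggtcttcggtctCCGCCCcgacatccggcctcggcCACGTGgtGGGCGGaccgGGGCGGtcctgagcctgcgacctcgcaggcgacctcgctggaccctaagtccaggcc
UCP2, chr11:73983203-73983452, minus strand: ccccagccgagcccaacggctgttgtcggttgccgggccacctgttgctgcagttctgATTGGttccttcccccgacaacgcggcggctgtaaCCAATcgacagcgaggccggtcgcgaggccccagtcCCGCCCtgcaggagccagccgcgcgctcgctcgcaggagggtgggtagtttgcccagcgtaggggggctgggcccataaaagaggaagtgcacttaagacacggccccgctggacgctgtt
ASS1, chr9:130444711-130444960, plus strand: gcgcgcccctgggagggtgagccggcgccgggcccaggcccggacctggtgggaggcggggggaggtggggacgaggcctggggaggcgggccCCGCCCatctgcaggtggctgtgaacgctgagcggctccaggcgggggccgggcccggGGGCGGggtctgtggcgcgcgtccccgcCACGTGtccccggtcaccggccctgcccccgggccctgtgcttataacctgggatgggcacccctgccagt
GLUL, chr1:182391791-182392040, minus strand: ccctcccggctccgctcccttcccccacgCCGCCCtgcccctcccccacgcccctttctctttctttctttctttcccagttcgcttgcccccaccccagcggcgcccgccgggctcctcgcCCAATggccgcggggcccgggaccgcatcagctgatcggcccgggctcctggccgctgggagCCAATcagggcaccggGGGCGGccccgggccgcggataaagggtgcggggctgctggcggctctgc
A GC box was found in 4 of 4 stretches, against 42.6% of 35116 promoters of the same length. CCAAT boxes were found in GLUL and UCP2 (32.0% of promoters), and the E-box in ACY1 and ASS1 (6.34% of promoters). None of the 4 held TATAAA (10.7% of promoters), TGACNNNGC (10.9%), TGACGTCA (1.65%) or CAAAGTCCA (0.325%). GC content was 66.8% to 78.8%, with a median of 58% over all promoters. In the stretches shown, the small and the large falls did not separate by these letters: the E-box, for example, was in ACY1 and in ASS1. ASS1 and UCP2 each had another RefSeq start within 500 bases, at 222 and 403 bases from the 5′ end of the deposited locus. The stretch before that start held GC boxes in both genes, but no E-box in ASS1 and no CCAAT box in UCP2. In the promoter sequences used, the nearest starts of HPD and IDH2 lay 4737 and 1883 bases inside the 5′ ends of the deposited loci. Their promoters are not shown. The RefSeq locus of IDH2 itself ends at 90102468, near the deposited 90102504, but none of the promoter sequences was for that start.

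ASS1 (ENSG00000130707, GRCh38 chromosome 9, 130444929 to 130501274) was the most abundant of the 6 genes in both groups. It had 1893, 1972 and 1877 FPKM in control replicates 1, 2 and 3, and 829, 629.5 and 712 FPKM in bufotalin replicates 1, 2 and 3. The groups did not overlap, and the lowest control library stood 2.26 times above the highest treated library; in 48.7% of all tested genes every control library stood above every treated one. Mean ASS1 went from 1914 ± 51.0 to 724 ± 99.99 FPKM, a ratio of 2.65 and a log2 fold change of -1.41 (SE 0.15). In control libraries this gene alone gave 1.81% to 1.86% of the summed FPKM of the table, and in treated libraries 0.533% to 0.683%. RefSeq names 14 pseudogenes after ASS1 and 6 after GLUL; how reads shared with such copies were assigned was not given in the sources used here, and the levels of both genes are uncertain to that extent.

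HPD (ENSG00000158104, chromosome 12, 121839527 to 121863596) had 116, 127 and 130.1 FPKM in the control libraries and 18.2, 10.9 and 14.5 FPKM in the treated ones. The mean of HPD went from 124 ± 7.54 to 14.5 ± 3.61 FPKM, a ratio of 8.56. Its treated libraries were the most scattered of the 6 genes relative to their mean, with a coefficient of variation of 24.8%.

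ACY1 (ENSG00000243989, chromosome 3, 51983340 to 51989197) showed the largest fall of the 6 genes. Control libraries had 30.3, 31.8 and 32.0 FPKM, and treated libraries 1.94, 1.95 and 1.58 FPKM. The ratio of the ACY1 means was 17.2, and it lay between 15.6 and 20.3 over all pairs of a control and a treated library. The log2 fold change of ACY1 was -3.52 (SE 0.11), at rank 2 of the falls among the tested genes.

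GLUL (ENSG00000135821, chromosome 1, 182381704 to 182392206) had the least scatter in both groups. It had 119, 119 and 124 FPKM in control and 48.8, 45.6 and 44.8 FPKM in treated libraries. The ratio of the GLUL means was 2.60, and the log2 fold change -1.36 (SE 0.10).

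IDH2 (ENSG00000182054, chromosome 15, 90083045 to 90102504) had 21.0, 18.8 and 19.3 FPKM in control libraries and 1.75, 1.36 and 1.5 FPKM in treated libraries. The IDH2 means stood at a ratio of 12.8, with a log2 fold change of -3.03 (SE 0.11).

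UCP2 (ENSG00000175567, chromosome 11, 73974672 to 73983246) had 38.4, 42.1 and 40.8 FPKM in control and 2.54, 2.72 and 3.64 FPKM in treated libraries. The ratio of its means was 13.6 and its log2 fold change -3.39 (SE 0.13), at rank 3 of the falls.

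**Figure D1:**
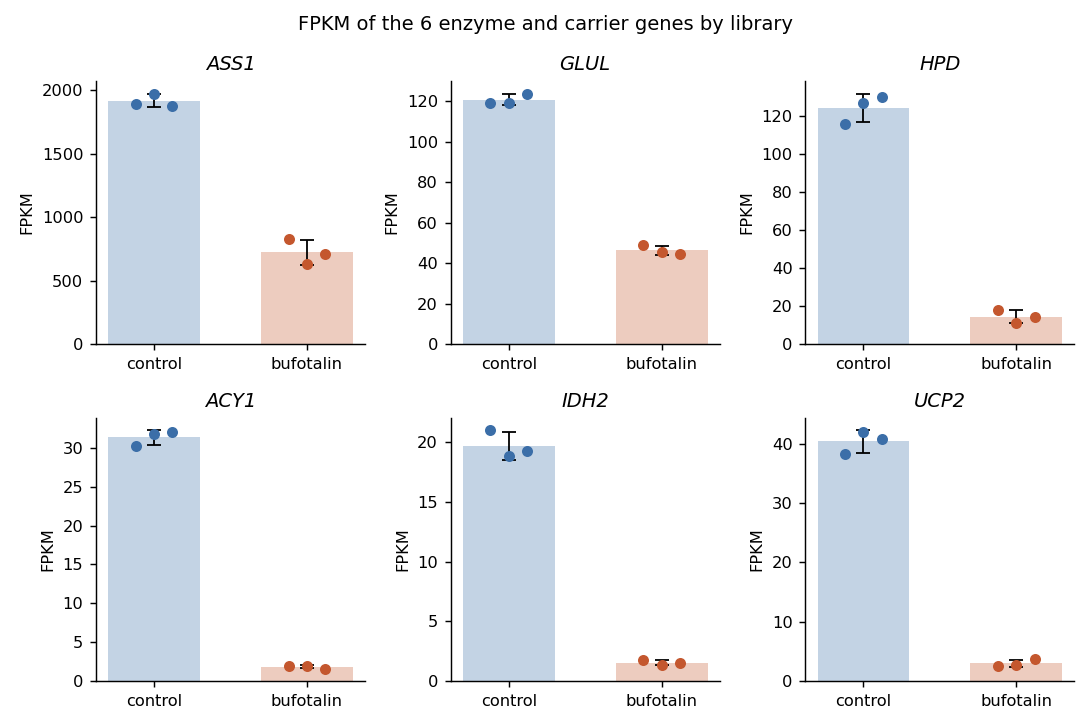
FPKM (vertical axes, each from 0) of the 6 genes in control and bufotalin libraries; points are single libraries, bars the mean and error bars the SD over 3. In every panel the 3 treated libraries lie below the 3 control libraries, with means 2.60 times (GLUL) to 17.2 times (ACY1) apart.

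The sizes of the falls lay in separate ranges. ASS1 and GLUL went down 2.60 to 2.65 times, and HPD, ACY1, IDH2 and UCP2 went down 8.56 to 17.2 times. By profile over the 6 libraries, centred on each gene's mean, ASS1 and GLUL had a root mean square difference of 0.10 on the log2 scale, while either of them differed from the other 4 by 0.81 to 1.08. The gap of 0.81 to 1.08 largely follows from the sizes of the falls and is not a separate result. HPD, ACY1, IDH2 and UCP2 differed from each other by 0.16 to 0.32. With a pseudocount of 0.01 in place of 1, the log2 fold change of ACY1 was -4.10, of UCP2 -3.78 and of IDH2 -3.68, while that of HPD, which kept more FPKM, was -3.12 in place of -3.04.

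**Figure D2:**
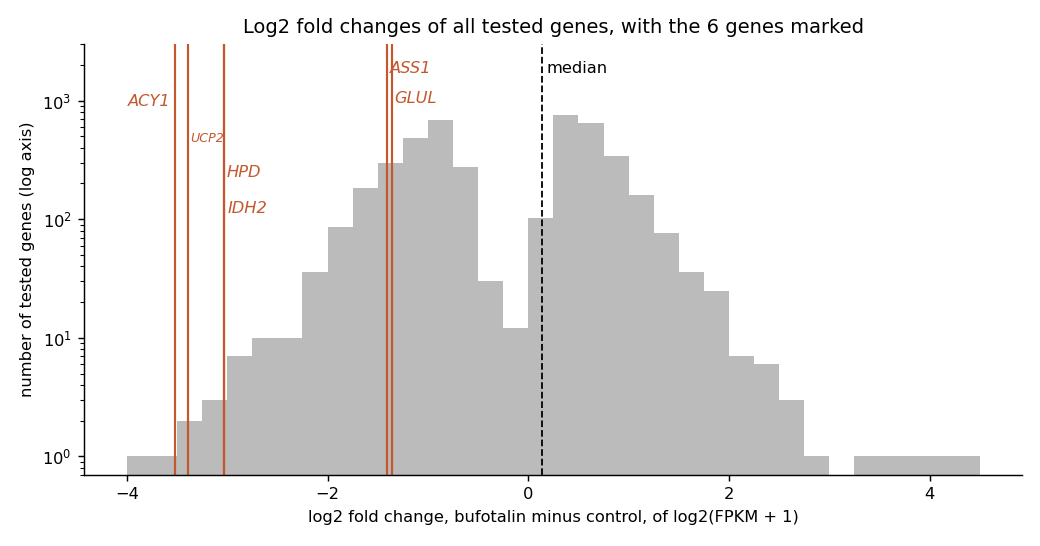
Number of tested genes (log axis) by log2 fold change of log2(FPKM + 1), in bins over 4273 genes, with the 6 genes as vertical lines and the median of all tested genes as a dashed line. ACY1, UCP2, HPD and IDH2 lie at -3.52 to -3.03, in the thin lower tail, and ASS1 and GLUL at -1.41 and -1.36, within the main body of lower genes. Few genes lie near 0 in this table of genes selected as different.

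The order of levels changed with treatment for HPD and GLUL. In control libraries ASS1 stood 15.4 times above HPD, and HPD (124 FPKM) and GLUL (121 FPKM) overlapped between libraries. Below them followed UCP2, ACY1 and IDH2, each apart from the next in all libraries. In treated libraries GLUL (46.4 FPKM) stood 3.19 times above HPD (14.5 FPKM) with no overlap, and the lowest genes, ACY1 (1.82 ± 0.210 FPKM) and IDH2 (1.54 ± 0.200 FPKM), overlapped. Replicate scatter was small in control, where the coefficient of variation was 2.24% to 6.07% for the 6 genes against a median of 11.1% over tested genes. In treated libraries it was 4.61% to 24.8% against a median of 12.2%.

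The transcript table, which lists transcripts the authors filed as lncRNA, held an entry at 2 of the 6 genes. UCP2-208 (chromosome 11, 73974852 to 73978141), a transcript within the UCP2 locus, had 7.04, 7.57 and 4.42 FPKM in control and 0.430, 0.209 and 0.429 FPKM in treated libraries. Its groups did not overlap, and it fell with the gene (limma on log2(FPKM + 0.1), log2 fold change -3.83, SE 0.39, adjusted p 0.000498); of the 465 transcripts tested, 205 (44.1%) were lower and 136 (29.2%) higher. UCP2-208 stood at 15.7% of the FPKM of its gene in control and at 12% in treated libraries. GLUL-211 (chromosome 1, 182385699 to 182391790) had 2.22 and 1.40 FPKM in control replicates 1 and 2 and was listed at 0 in control replicate 3 and in all treated libraries. It did not pass (adjusted p 0.0827 by limma), but passed without control replicate 3 (adjusted p 0.000489 by limma), so that library decides the call. These transcripts share exons or reads with the genes they lie in and are not a separate measurement.

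The other genes of the same pathways were counted with the 6 genes left out. The lists named 239 genes of enzymes and transporters, of which 87 were in the table and 80 were tested. Of those 80, 55 were lower and 20 higher past the test, where 48.8% and 44.3% of all tested genes were; 40 of the 80 were lower by at least 2-fold, against 25.9% of all tested genes. The median log2 fold change of the 80 was -1.01, and 0.13 over all tested genes. Of the 20 higher genes, 13 were solute carriers (SLC genes) of the arginine, glutamine and mitochondrial lists. Other tested SLC genes of these lists were lower, namely SLC25A15, SLC1A1 and 6 mitochondrial carriers. A further 3 mitochondrial carriers were not called.

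**Figure D3:**
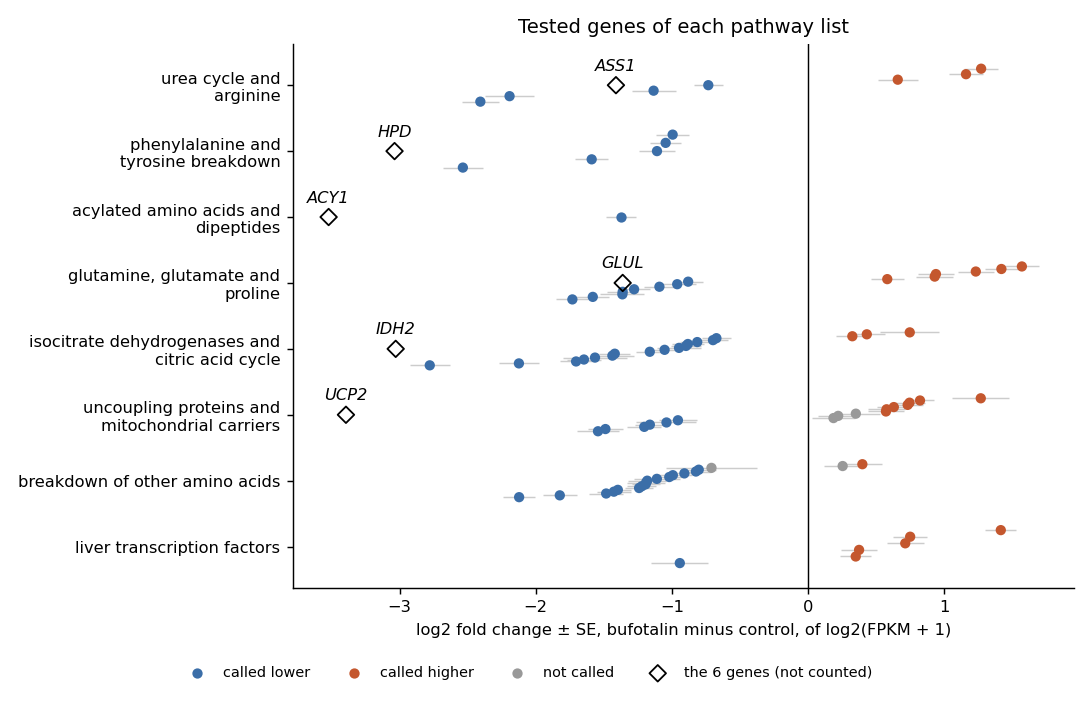
Log2 fold change with SE (horizontal axis) of the tested genes of each pathway list, coloured by limma's call, with the 6 genes as open diamonds that are not counted. Tyrosine breakdown has 5 genes, all lower, while the arginine and glutamine lists have 3 and 6 genes on the higher side.

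Of 7 tested genes of the urea cycle and arginine list, 4 were lower (ASL, GAMT, SLC25A15 and ARG2) and 3 higher (SLC7A1, SLC7A2 and ODC1), where 48.8% and 44.3% of all tested genes were. ASL, the enzyme that follows ASS1 and releases arginine, had 12.8, 13.9 and 15.0 FPKM in control and 2.22, 1.88 and 1.38 FPKM in treated libraries (log2 fold change -2.41, SE 0.14, adjusted p 1.42e-06 by limma). The ratio of ASS1 to ASL went from 138 ± 12 to 408 ± 96.1, as ASL went down further. GAMT, the last enzyme of creatine synthesis, fell from 14.5 ± 2.15 to 2.43 ± 0.856 FPKM, and SLC25A15, the mitochondrial ornithine carrier, from 9.07 ± 1.67 to 3.58 ± 0.707 FPKM.

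The cationic amino acid importer SLC7A1 had 26.6, 27.0 and 32.5 FPKM in control and 61.3, 62.4 and 71.9 FPKM in treated libraries, and rose (1.16, SE 0.12, adjusted p 2.15e-05 by limma). Its relative SLC7A2 rose from 46.0 ± 9.31 to 72.3 ± 3.36 FPKM. ODC1, which turns ornithine into putrescine, rose from 85.5 ± 8.04 to 208 ± 16.9 FPKM. Of these, SLC25A15 (-1.13) and SLC7A2 (0.66) had -0.74 and 0.37 under quantile normalization. ARG2, the mitochondrial arginase, was lower (-0.73) but had 0.017 under that normalization.

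Every tested gene of tyrosine breakdown that lies downstream of HPD was lower. HGD, which opens the ring of homogentisate, had 68.7, 80.8 and 84.8 FPKM in control and 15.3, 10.6 and 12.3 FPKM in treated libraries (-2.54, SE 0.15, adjusted p 1.44e-06 by limma). GSTZ1, the isomerase after it, fell from 8.31 ± 0.604 to 3.68 ± 0.461 FPKM (-0.99, and -0.59 under quantile normalization). FAH, the last step, went from 1.19 ± 0.252 to 0.0546 ± 0.0416 FPKM, so few fragments that its log2 fold change was -1.05 with a pseudocount of 1 and -4.39 with 0.01, and -0.62 under quantile normalization. HPDL, a relative of HPD, fell from 18.0 ± 2.34 to 5.30 ± 0.287 FPKM (-1.59), and PCBD1, which recycles the cofactor of phenylalanine hydroxylase, from 186 ± 4.63 to 86.6 ± 13.6 FPKM. The ratio of HPD to HGD was 1.60 ± 0.0786 in control and 1.13 ± 0.0904 in treated libraries. In all, 5 of 5 tested genes of the list were lower, where 48.8% of all tested genes were.

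The list around ACY1 had 1 tested gene, APEH, which removes acylated amino acids from peptide ends and fell from 77.9 ± 7.49 to 29.4 ± 0.766 FPKM (-1.37, SE 0.11). ACY3, also an aminoacylase, was under the FPKM minimum, with 0.985, 0.821 and 0.754 FPKM in control and 0.0241, 0.0527 and 0.0217 FPKM in treated libraries.

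**Figure D4:**
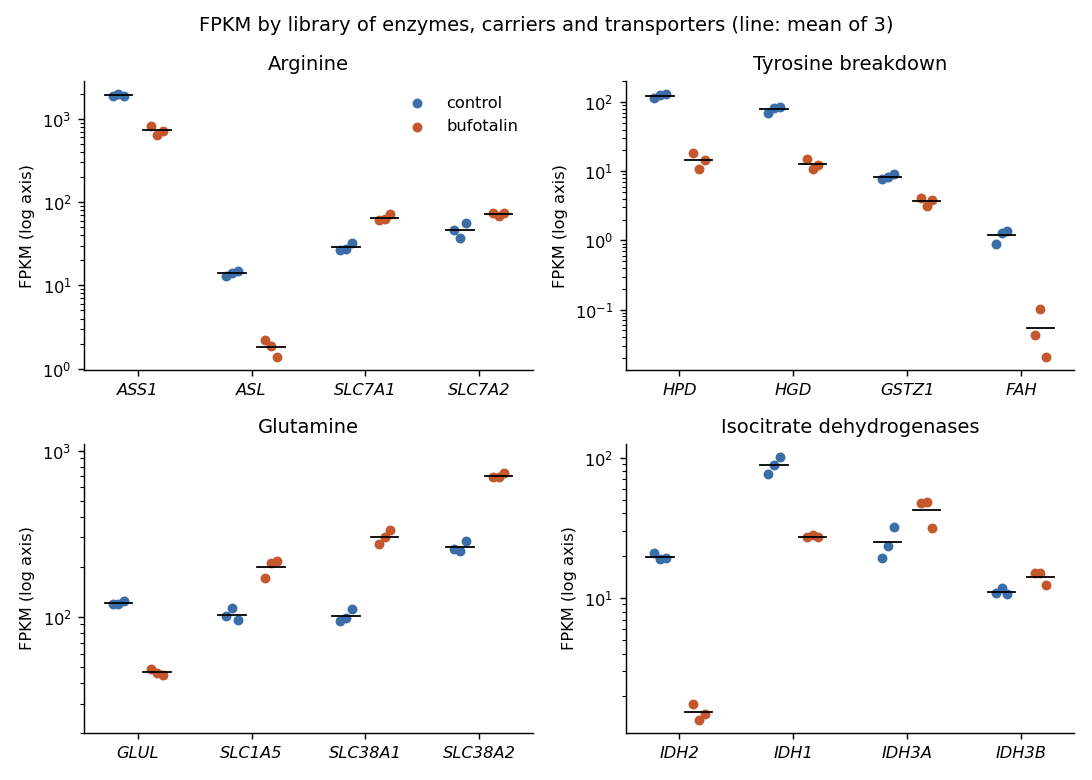
FPKM by library (log axes) of genes around ASS1, HPD, GLUL and IDH2; points are libraries and lines the means of 3. Tyrosine genes are all lower in treated libraries, while the importers SLC7A1, SLC7A2, SLC1A5, SLC38A1 and SLC38A2 and the subunit IDH3B are higher, and IDH3A overlaps between groups.

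Of 14 tested genes of the glutamine, glutamate and proline list, 8 were lower and 6 higher, where 48.8% and 44.3% of all tested genes were. Of the 6 higher genes, 5 are transporters of glutamine or other neutral amino acids. SLC38A2 had 256, 249.5 and 285 FPKM in control and 689, 693 and 736 FPKM in treated libraries, and SLC38A1 rose from 101 ± 8.74 to 303 ± 28.2 FPKM (1.57, SE 0.13). SLC1A4 rose from 15.8 ± 2.37 to 38.3 ± 2.78 FPKM, SLC1A5 from 103 ± 9.0 to 199 ± 24.3 FPKM (0.94, and 0.62 under quantile normalization) and SLC38A5 from 16.0 ± 2.67 to 31.2 ± 2.66 FPKM.

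The 8 lower genes of that list were GLUD1, GPT, GFPT2, CTPS2, the proline enzymes PYCR1, PYCR3 and PRODH, and the glutamate transporter SLC1A1. GFPT2, which makes hexosamines from glutamine, fell from 26.5 ± 2.77 to 7.28 ± 0.515 FPKM, CTPS2, a CTP synthase, from 18.5 ± 2.06 to 5.52 ± 0.508 FPKM, and PYCR3, of proline synthesis, from 6.47 ± 1.35 to 1.89 ± 0.413 FPKM. PYCR3 had -1.36, and -0.81 under quantile normalization. LGSN, which is related to glutamine synthetases, was under the FPKM minimum, with at most 0.185 FPKM in any library.

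Among isocitrate dehydrogenases the NADP-dependent enzymes fell and the measured NAD-dependent subunits did not. IDH1, the cytosolic counterpart of IDH2, had 76.2, 87.8 and 101 FPKM in control and 27.1, 28.0 and 27.0 FPKM in treated libraries (-1.65, SE 0.12, adjusted p 3.94e-06 by limma). The ratio of IDH2 to IDH1 went from 0.227 ± 0.0438 to 0.0562 ± 0.00804, so IDH2 lost more than IDH1. IDH3A had 19.3, 23.4 and 32.3 FPKM in control and 47.2, 48.5 and 31.6 FPKM in treated libraries, with overlapping groups (0.75, SE 0.22, adjusted p 0.00962 by limma). Bufotalin replicate 3 was the low one, and the transcript IDH3A-208 was listed at 0 in all control libraries and at 16.5, 19.8 and 1.55 FPKM in the treated ones; its part in the value of the gene was not tested. IDH3B rose from 11.1 ± 0.659 to 14.2 ± 1.53 FPKM (0.33, adjusted p 0.0234 by limma), a call that ended when control replicate 1 or 3, or bufotalin replicate 1 or 2, was left out (0.28 to 0.31), and it had 0.50 after scaling to equal medians.

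In the citric acid cycle list as a whole 15 of 18 tested genes were lower, with IDH3A, IDH3B and DLST as the 3 higher ones. Of all tested genes, 48.8% were lower and 44.3% higher. The carboxykinases of gluconeogenesis fell, PCK1 from 7.82 ± 1.597 to 0.270 ± 0.0426 FPKM and the mitochondrial PCK2 from 45.7 ± 9.55 to 9.59 ± 0.791 FPKM. PCK1 had -2.78 with a pseudocount of 1 and -4.79 with 0.01. ME1, the cytosolic malic enzyme and like IDH1 a source of NADPH, fell from 34.7 ± 1.45 to 10.0 ± 1.35 FPKM. DLST, a subunit of the oxoglutarate dehydrogenase complex, had 0.43, and 0.17 without a call under quantile normalization.

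Of 16 tested mitochondrial carriers, the family to which UCP2 belongs, 6 were lower, 7 higher and 3 not called, where 48.8% of all tested genes were lower and 44.3% higher, with a median log2 fold change of 0.29. The dicarboxylate carrier SLC25A10 fell from 18.5 ± 1.25 to 5.77 ± 1.34 FPKM, the coenzyme A carrier SLC25A42 from 8.41 ± 0.800 to 2.36 ± 0.416 FPKM and the citrate carrier SLC25A1 from 78.2 ± 3.36 to 33.6 ± 4.91 FPKM. The ATP-magnesium carrier SLC25A25 rose from 12.5 ± 0.996 to 32.5 ± 9.61 FPKM and the ADP/ATP carrier SLC25A4 from 7.42 ± 0.523 to 13.9 ± 0.519 FPKM. The lowest fold change among these 16 genes was -1.54, above the -3.39 of UCP2. The other uncoupling proteins were not analysed here.

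Breakdown of the remaining amino acids was lower in most of its tested genes. The list named 69 genes, of which 21 were in the table. Of 19 tested, 16 were lower, 1 was higher and 2 were not called, where 48.8% of all tested genes were lower and 44.3% higher. HIBADH, of valine breakdown, fell from 34.6 ± 2.25 to 7.21 ± 0.878 FPKM (-2.12, SE 0.12), SDSL, a serine dehydratase relative, from 4.84 ± 0.368 to 0.657 ± 0.220 FPKM and SRR, serine racemase, from 4.26 ± 0.670 to 0.874 ± 0.125 FPKM. SDSL and SRR had -1.82 and -1.48, -2.91 and -2.27 with a pseudocount of 0.01, and -1.16 and -0.78 under quantile normalization. The higher gene was MAT2A, which makes S-adenosylmethionine, at 0.40, and its call ended under quantile normalization (0.11) and on leaving out control replicate 1, bufotalin replicate 2 or bufotalin replicate 3 (0.28 to 0.39).

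Transcription factors of liver cells did not go down with the enzymes as a group. Of 6 tested, 5 were higher, where 44.3% of all tested genes were. ATF5 rose from 4.04 ± 0.530 to 12.4 ± 0.336 FPKM, CEBPB from 32.3 ± 4.54 to 54.6 ± 1.94 FPKM and ONECUT2 from 8.18 ± 0.662 to 14.2 ± 2.51 FPKM. Without control replicate 1 the count of higher genes was 3. PPARA, a regulator of fatty acid oxidation, was the lower one, from 5.71 ± 1.51 to 2.51 ± 0.815 FPKM (-0.94, and -0.36 without a call under quantile normalization).

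Other genes of the table were ranked by how close their profiles lay to those of the 6 genes. By the smallest root mean square difference over the 6 libraries, on centred values of log2(FPKM + 1), ASS1 was nearest to EVPLL (0.049) and FLYWCH2 (0.056), and GLUL to MVB12B, a subunit of the endosomal sorting machinery (0.042), and the cation channel gene TRPM4 (0.046). IDH2 was nearest to the aldehyde dehydrogenase ALDH3A1 (0.13) and to HPD (0.16), and HPD to IDH2 and to SELENBP1 (0.17), which oxidises methanethiol. UCP2 was nearest to the monoamine oxidase MAOB (0.12) and to ACY1 (0.19), and ACY1 to the receptor NOTCH3 (0.16) and to MAOB (0.18). This likeness is on log2(FPKM + 1) and for low genes rests on the pseudocount of 1. EVPLL went from 2.16 to 0.158 FPKM and had a log2 fold change of -1.45 with a pseudocount of 1 and -4.13 with 0.01, against -1.41 with either for ASS1. ALDH3A1 likewise had -2.94 and -5.58, MVB12B -1.33 and -2.30, and TRPM4 -1.33 and -2.24. Each of these genes lay on another chromosome than the gene it was nearest to.

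Genes next to the 6 genes did not share one direction. Within 100 kb of ACY1, ABHD14B (-1.65), PARP3 (-1.72, and -1.04 under quantile normalization) and ABHD14A (-0.85) were lower and DUSP7 (0.35) was higher. The deposited loci of ABHD14B and ACY1 overlap, and RefSeq has a readthrough gene ABHD14A-ACY1 that covers ABHD14A and ACY1, so reads of these genes may not be told apart without strand or transcript assignment. ABHD14A had -0.22 and no call under quantile normalization, DUSP7 had 0.56 there, and its call was lost without control replicate 2 or bufotalin replicate 3. Beside HPD, RHOF (0.84), PSMD9 (0.71) and SETD1B (0.36) were all higher while HPD was lower; RHOF had 0.56 and SETD1B 0.71 under quantile normalization, and the SETD1B call was lost with the replicate number as a block (adjusted p 0.0518 by limma) and on leaving out any library but control replicate 2 or bufotalin replicate 1. PAAF1 (-1.76), near UCP2, and SEMA4B (-1.38, and -0.87 under quantile normalization), near IDH2, were lower.

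Genes listed as markers of other cells moved as well. Expression by the tumour line, reads of host cells, fewer cells of a type and less RNA per cell cannot be told apart in bulk. Of 22 hepatocyte markers only TF was in the table, listed at 0 in control and at up to 0.0402 FPKM in treated libraries; the others, ALB and AFP among them, were not analysed here, so the liver identity of the tumours could not be checked. Of 16 fibroblast markers 8 were in the table and 7 of 7 tested were lower, where 48.8% of all tested genes were. The fibroblast markers summed to 84.2 to 88.7 FPKM in control and 23.9 to 29.8 FPKM in treated libraries. Endothelial markers (2 of 10 in the table, 1 higher and 1 lower) summed to 32.2 to 33.7 and 8.46 to 10.6 FPKM. Most of that sum was EGFL7, at 32.1 to 33.6 FPKM in control and 7.22 to 9.84 FPKM in treated libraries. CDH5 was the higher one, at 0.00702 to 0.101 FPKM in control and 0.746 to 1.24 FPKM in treated libraries. Leukocyte markers (3 of 10, with 1 of 1 tested higher) summed to 3.18 to 3.53 and 4.61 to 6.82 FPKM. Most of that was CSF1R, at 3.14 to 3.41 FPKM in control and 3.97 to 6.09 FPKM in treated libraries. Erythroid and muscle markers (2 of 10, 1 lower) summed to 2.06 to 15.2 and 0.392 to 0.633 FPKM, with HBB at 13.4 FPKM in control replicate 3 alone. Whether these cells, or reads of the host animal, had a part in the values of the 6 genes was not tested. Without control replicate 3, the log2 fold changes of the 6 genes moved by at most 0.033, and with any other library left out by at most 0.18.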

How the data were processed

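Per the labels' protocols, RNA was prepared with TRIzol and sequenced from NEBNext Ultra libraries. Both tables used hold FPKM as the authors deposited them, by gene (mRNA) or by transcript (lncRNA), for features that, by the tables' names, they had selected as different on these libraries; their rule was not given in the sources used here. Per the submitters' processing notes, the tools included DESeq2 1.20.0, featureCounts 1.5.0-p3, HISAT2 2.0.5, CASAVA 1.8 and fastp, and the build was GRCh38; which of them made these values is not said there. The 6 small RNA libraries were not used.

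Libraries were grouped by their titles. Genes whose mean reached 0.5 FPKM were fitted with limma 3.58.1 (R 4.3.3) on log2(FPKM + 1), and transcripts whose mean reached 0.1 FPKM on log2(FPKM + 0.1), with trended, robust variance, two-sided tests, and Benjamini-Hochberg adjustment over each whole table (threshold 0.05). The fit was also run on simulated data in which few genes changed. That differs from this table, so the run does not speak to the calls given here. Python 3.11.15, pandas 2.3.3, numpy 2.4.6 and matplotlib 3.10.9 were also used. The alternatives were other pseudocounts (0.1 and 0.01; for transcripts 0.01), FPKM minimums (none and 1), quantile normalization, equal medians, no variance trend, the replicate number as a block, and each library left out in turn. Of the 4988 genes, 4968 matched the gene reference by identifier, and all 6 members did.

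The members, pathway lists, marker lists and motifs were chosen with earlier results of these data known. Genes named beside the members were the partners fixed for each member, up to 3 higher and 3 lower per list by size of change, the 2 nearest profiles per member, and genes within 100 kb; some genes these rules name are not reported here. SLC1A5, SLC38A5, GSTZ1, FAH, ARG2, GLUD1, GPT, PYCR1, PRODH, SLC1A1 and SLC25A3, the markers TF, ALB, AFP, HBB, EGFL7, CDH5 and CSF1R, and the transcript IDH3A-208 were named after their values were seen. Same-numbered libraries of the groups did not deviate together (correlation of deviations -0.052 to 0.026), so the numbers were not taken as pairs.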

Additional observations from a re-analysis of the deposited data

How the results depend on the processing

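The 6 genes stayed lower in treated libraries in all 14 alternatives each, and no direction was tested. Over all tested genes the log2 fold change had a median of 0.13, and 0.31 after scaling to equal medians, 0.25 with a minimum of 1 FPKM, 0.05 under quantile normalization and -0.14 with no minimum; with each library left out it ranged from -0.27 to 0.18. After scaling to equal medians the 6 genes had -3.37 to -1.17, with the median of all tested genes not subtracted. Over the whole table the calls were 1658 higher and 1598 lower under quantile normalization, which is within 1.5 times of the 1894 and 2087 given. With the replicate number as a block, 1864 genes were higher and 2093 lower, and among the 80 pathway genes with the liver transcription factors 25 were higher and 57 lower, against 25 and 56; this changed no other call named here than that of SETD1B. These list counts were 21 to 29 higher and 53 to 62 lower over all settings. Counts in small lists moved more. The list of acylated amino acids had 2 lower genes in place of 1 with no minimum, and 1 to 2 with each library left out, as ACY3 entered the test. Breakdown of other amino acids had 0 higher genes under quantile normalization, 2 with equal medians and 0 to 2 with each library left out. Liver transcription factors had 2 lower genes with no minimum, 0 under quantile normalization, and 3 to 5 higher genes with each library left out. GLUL-211 had a log2 fold change of -2.81, and -4.22 to -1.95 with each library left out. ARG2 turned to 0.017 and SLC25A3, which was not called, to -0.25 under quantile normalization; the cause was not tested. Of the results for single pathway genes, 1171 kept direction and call, 15 lost the call, 11 gained it and 2 turned. Depth of total RNA was unknown, so no counting error could be given for genes left with few FPKM.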
